A study of Mus musculus with 6 samples.

Results

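Among the genes outside the immunoglobulin loci, 8 were chosen because earlier results from these arrays gave them the steadiest difference between Igλ+ and Igκ+ B cells of wild-type mouse bone marrow. Tfdp1, Uhrf1 and Arhgap26 had less signal in the Igλ+ cells, and Slc1a4, Mcf2l, F5, Wfdc21 and Dapl1 had more. Every probe set that carries 1 of these symbols and no other was taken, which gave 15 of the 45101 probe sets on the array and 8 of the 18193 genes that have such a probe set. The values that chose the genes are those of the wild-type arrays, so the Igλ+ against Igκ+ difference is given below as a description, with no test.

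The study sorted B cells of C57BL/6 mice aged 8 to 12 weeks, both sexes mixed, by the light chain on their surface, after removing cells that carry CD3, Ter119, CD11b, DX5 or Gr1. Total RNA was measured on 6 Affymetrix arrays in 3 groups of 2. One group was Igκ+ cells with the genetic modification mb-1/TAK1f/f, called TAK1-deficient here after the title prefix tak. The others, Igκ+ and Igλ+ cells, were wild type, labelled mb-1/TAK1+/+, so all 3 groups carry mb-1. TAK1 (Map3k7) is a kinase relaying receptor signals to NF-κB and MAP kinases. What mb-1 drives, whether deletion reached every cell, how many mice gave a sample, and whether the second array of a group came from other mice are not stated in the labels. Each p-value below rests on the spread between the 2 arrays of a group, pooled over the 3 groups and moderated across genes. The 2 arrays of a group may thus be technical repeats, and the TAK1-deficient ones share in that spread.

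A B cell first rearranges its κ light chain genes, and most λ-bearing cells arise when κ rearrangement has failed or been edited, so that λ cells are a small fraction in the mouse. The 8 genes do not form 1 pathway. Tfdp1 encodes DP1, the partner with which E2F factors bind DNA at genes for entry into S phase. Uhrf1 encodes a protein that recognises hemimethylated DNA behind the replication fork and brings in DNMT1, which copies the methylation. Slc1a4 encodes ASCT1, a carrier of alanine, serine and other small neutral amino acids. Mcf2l encodes a guanine nucleotide exchange factor, a kind of protein that switches small GTPases on, and Arhgap26 a GTPase-activating protein, GRAF1, a kind that switches them off. F5 encodes coagulation factor V, the cofactor of factor Xa. Wfdc21 encodes a small secreted protein with a whey acidic protein (WAP) domain. Dapl1 is named for its likeness to the death-associated protein Dap and is less well described.

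The TAK1-deficient arrays stood apart from the other 4. All 6 share a mean signal of 500 once the lowest and highest 2% are left out, but the median signal was 323 and 324 there and 44.9 to 59.1 for wild type. Bacterial control transcripts added to every hybridization had a geometric mean of 41197 and 47043 against 3985 to 4608, and the 95th percentile of control probe sets with no matching RNA, used here as the background level, was 75.7 and 77.7 against 10.3 to 17.4. The ratio of the 3' to the 5' probe set of Actb was 4.18 and 6.28 against 1.25 to 1.58. The 4 wild-type arrays were close to each other on these measures, whereas genotype and array quality cannot be told apart for the TAK1-deficient ones. The Map3k7 probe set that stands for its gene read 346 and 599 in TAK1-deficient samples and 1805 to 2196 in the 4 others. A dim probe set of Map3k7 read 109 and 98.5 against 72.8 to 90.5, and another, at 12.4 and 102, overlapped the wild-type range of 65.8 to 129. The remaining ones were lower on both TAK1-deficient arrays. Bright genes as a whole also had lower values there, with log2 medians of −1.52 and −1.54 in deciles 8 and 9 of level, as set out below. All 9 B lineage markers on the array, among them Cd79a and Ms4a1, were above background on every array. Over 16 κ probe sets, the median signal as a percentage of the wild-type Igκ+ mean was 0.405% on Igλ+ replicate 1 and 26.5% on Igλ+ replicate 2, while 3 λ probe sets were at 174% and 204%. In TAK1-deficient Igκ+ cells the κ probe sets were at 17.2% and 21.8% of that mean and the λ probe sets at 14.9% and 17.7%, on arrays whose scale differs as given above. Both Igλ+ arrays are therefore given separately throughout.

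Promoter sequence is shown for the 3 members in which a window held a motif tied to the gene's role. RefSeq windows for build GRCm38.p6 were at hand for 6 of the 8 members, each running from 250 bases before to 50 after a transcription start, and the stretch printed is the last 200 bases before the start and the first 20 after it, 5′ to 3′ on the gene's own strand. Capitals mark the match. For Tfdp1 (chr8:13338551-13338770, plus strand) and Uhrf1 (chr17:56304113-56304332, plus strand) it is 1 of 4 octamers used here for an E2F site, TTTCCCGC, TTTGGCGC, TTTCGCGC and TTTGCCGC, sought on both strands. For Slc1a4 (chr11:20332694-20332913, minus strand) it is TGATGNAA, sought on both strands, the core bound by ATF4 with a C/EBP partner.
Tfdp1: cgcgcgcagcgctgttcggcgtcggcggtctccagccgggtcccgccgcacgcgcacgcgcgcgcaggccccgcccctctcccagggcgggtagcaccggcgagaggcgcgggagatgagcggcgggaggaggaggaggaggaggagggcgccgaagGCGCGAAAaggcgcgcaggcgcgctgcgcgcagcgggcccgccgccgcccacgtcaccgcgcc
Uhrf1: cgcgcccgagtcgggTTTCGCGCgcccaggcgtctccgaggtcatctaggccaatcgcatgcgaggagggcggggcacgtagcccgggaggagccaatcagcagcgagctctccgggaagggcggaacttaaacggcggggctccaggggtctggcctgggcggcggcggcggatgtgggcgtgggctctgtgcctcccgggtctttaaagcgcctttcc
Slc1a4: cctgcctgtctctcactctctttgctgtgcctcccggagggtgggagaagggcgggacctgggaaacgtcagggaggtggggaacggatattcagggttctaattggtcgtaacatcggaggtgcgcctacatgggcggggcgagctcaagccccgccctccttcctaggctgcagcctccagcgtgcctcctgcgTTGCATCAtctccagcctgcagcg
The E2F octamer of Tfdp1, GCGCGAAA, begins 43 bases before the start, and that of Uhrf1, TTTCGCGC, 185 bases before it. An overlapping second window of Tfdp1 holds the same octamer, and a first window of Uhrf1, about a start upstream of this one, holds none. Of all 32851 windows of this length, 2.26% hold one of these octamers. The Slc1a4 match, TTGCATCA, begins 4 bases before the start, and 3.97% of all windows hold such a match. Of the 6 windows of Mcf2l, 1 holds an ATF4-type match, TGATGCAA, 232 bases before its start. The windows of F5 and Dapl1 hold neither motif. A match describes the letters only.

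Tfdp1 was lower in Igλ+ than in Igκ+ cells, and its wild-type replicates were the closest of the 8 genes. It read 1976 and 1878 in wild-type Igκ+ cells, 979 and 1046 in Igλ+ cells, and 1453 and 1743 in TAK1-deficient cells. Both Igλ+ values lay below all 4 others, and the TAK1-deficient values lay between the wild-type groups. The group means were 1927 ± 69.2, 1013 ± 47.4 and 1598 ± 205 (SD, n = 2 each), so that the Igκ+ mean was 1.90 times the Igλ+ mean. On the scale log2(signal + 16), used for all differences here, Igλ+ minus Igκ+ was −0.92, and the nearest pair of arrays was 0.83 apart.

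Uhrf1 likewise was lower in Igλ+ cells at both of its probe sets. At the brighter one the signal was 3118 and 2805 in Igκ+, 1883 and 1389 in Igλ+, and 1458 and 1699 in TAK1-deficient Igκ+ cells. The wild-type groups did not overlap, and the TAK1-deficient arrays fell within the Igλ+ range. The means were 2962 ± 221, 1636 ± 349 and 1578 ± 170 (SD, n = 2 each), and the wild-type difference was −0.86. The dimmer probe set, at 209 and 158 in Igκ+ and 97.8 and 53.5 in Igλ+ cells, gave −1.15. On the TAK1-deficient arrays it read 312 and 420, above both wild-type groups, so the 2 probe sets of Uhrf1 agree on the wild-type direction and disagree on that of the TAK1-deficient cells.

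Slc1a4 was 3.33 times higher in Igλ+ than in Igκ+ cells by the ratio of mean signals. Its brightest probe set gave 104 and 91.4 in Igκ+, 345 and 306 in Igλ+, and 863 and 945 in TAK1-deficient cells. No groups overlapped, and the order was wild-type Igκ+, wild-type Igλ+, TAK1-deficient Igκ+. The means were 97.6 ± 8.77, 325 ± 27.4 and 904 ± 58.1 (SD, n = 2 each), and the wild-type difference was 1.59. The other 2 probe sets lay near background, at most 23.3 in Igκ+ and 40.5 in Igλ+ cells. Their wild-type groups did not overlap either, with gaps of 0.15 and 0.20 in the same direction, and neither rose above background on a TAK1-deficient array.

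The 2 GTPase regulators went opposite ways in the wild-type cells. Mcf2l, the activator, read 82.3 and 49.4 in Igκ+, 401 and 240.1 in Igλ+, and 297 and 389 in TAK1-deficient cells. Its Igλ+ values were well above its Igκ+ values but differed by 0.70 between themselves, as did those of Wfdc21, the widest spreads within a wild-type group among the 8 genes. The TAK1-deficient values fell within the Igλ+ range. The means were 65.8 ± 23.3, 320 ± 113 and 343 ± 64.8 (SD, n = 2 each), a 4.87-fold ratio of Igλ+ to Igκ+ and a difference of 2.03. Arhgap26, the inactivator, read 1093 and 1197 in Igκ+, 575 and 667 in Igλ+, and 1031 and 997 in TAK1-deficient cells at the probe set that stands for it. Here the Igλ+ arrays were the low ones, and the TAK1-deficient arrays lay just under the wild-type Igκ+ arrays. The means were 1145 ± 73.5, 621 ± 64.8 and 1014 ± 24.5 (SD, n = 2 each), a difference of −0.87.

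Arhgap26 was the member whose 4 probe sets disagreed. A second one read 977 and 1025 in Igκ+ and 649 and 819 in Igλ+ cells, again lower in Igλ+ but by 0.45, and only 237 and 257 in TAK1-deficient cells. Another read 316 and 277 in Igκ+ but 648 and 254 in Igλ+ cells, so its groups overlapped. The last was at or near background on the wild-type arrays. Which transcripts these probe sets match was not determined here.

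F5 had the widest gap between the nearest arrays of the wild-type groups among the non-immunoglobulin genes tested, on the scale log2(signal + 16), though not the largest group difference, which was greater for Rgs1, at 2.17, among others. Its brighter probe set read 43.6 and 31.4 in Igκ+, 251 and 179 in Igλ+, and 700.3 and 374 in TAK1-deficient cells. Both Igλ+ arrays were far above both Igκ+ arrays, and both TAK1-deficient arrays were above those. The means were 37.5 ± 8.61, 215 ± 51.0 and 537 ± 231 (SD, n = 2 each), a ratio of 5.73 between the wild-type groups and a difference of 2.10. The second probe set had the same order at lower signal, with 14.2 and 14.0, then 43.9 and 37.1, then 362 and 381, and a wild-type difference of 0.91. Its Igκ+ values were near the background level of those arrays, 13.4 and 10.3.

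Wfdc21 was the member in which wild-type Igλ+ cells had the highest signal of all groups. It read 384 and 365 in Igκ+, 740.3 and 1211 in Igλ+, and 578 and 677 in TAK1-deficient cells. No groups overlapped, although the Igλ+ arrays differed from each other by 0.70. The means were 374 ± 13.9, 976 ± 333 and 627 ± 70.6 (SD, n = 2 each), a ratio of 2.61 and a difference of 1.30.

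Dapl1 was dim in all wild-type cells and bright in the TAK1-deficient ones. It read 9.21 and 3.23 in Igκ+, 45.1 and 66.5 in Igλ+, and 1259.6 and 1142 in TAK1-deficient cells. Neither Igκ+ array was above background and both Igλ+ arrays were, so the Igκ+ level is only bounded. Set against the background level of those arrays, on the deposited scale, the Igλ+ signal was at least 4.66-fold and the TAK1-deficient signal at least 102-fold higher. The second bound is tied to that scale, as the background level of the TAK1-deficient arrays was itself 75.7 and 77.7. The measured means were 6.22 ± 4.23, 55.8 ± 15.2 and 1201 ± 83.4 (SD, n = 2 each).

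**Figure D1:**
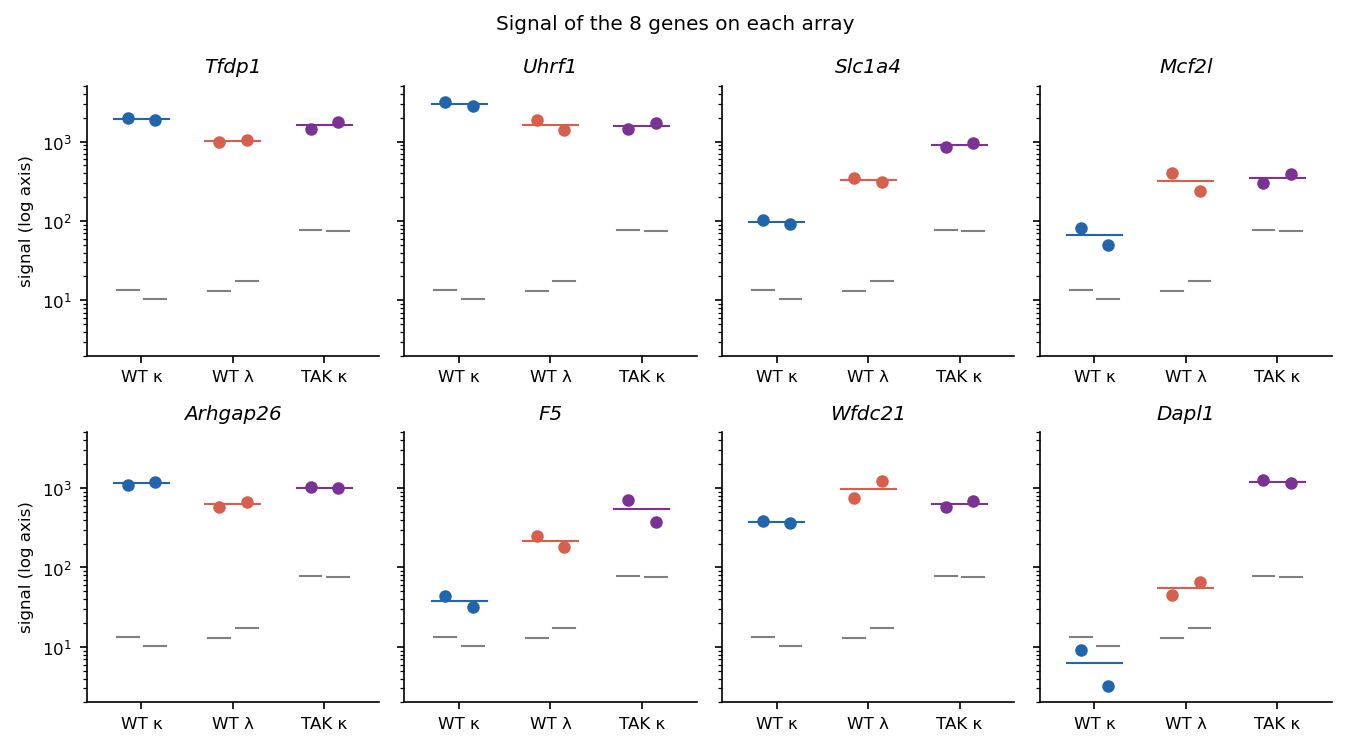
Signal on a log axis (arbitrary units, as deposited) of the probe set that stands for each of the 8 genes, by group, which are Igκ+ (WT κ) and Igλ+ (WT λ) cells of the wild type and TAK1-deficient Igκ+ (TAK κ). Points are arrays, coloured bars group means, and short grey bars the background level of each array. Tfdp1, Uhrf1 and Arhgap26 have both Igλ+ points below both wild-type Igκ+ points, and the other 5 genes have them above; Dapl1 runs from 3.23 to 1259.6.

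Setting each Igλ+ array against each Igκ+ array gives 4 differences per probe set. That all 4 had the same sign in the 8 probe sets that stand for their genes is fixed by the choice of the genes. Of the 7 other probe sets 5 had 4 differences of the same sign, 2 of them the near-background ones of Slc1a4, and the 2 that had not were probe sets of Arhgap26. For Uhrf1 the 4 differences ran from −1.16 to −0.57, and for Slc1a4 from 1.43 to 1.75. For Mcf2l they ran from 1.38 to 2.67, and for F5 from 1.71 to 2.49. Slc1a4, Mcf2l and F5 were higher on Igλ+ replicate 1, and Wfdc21 and Dapl1 on Igλ+ replicate 2.

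**Figure D2:**
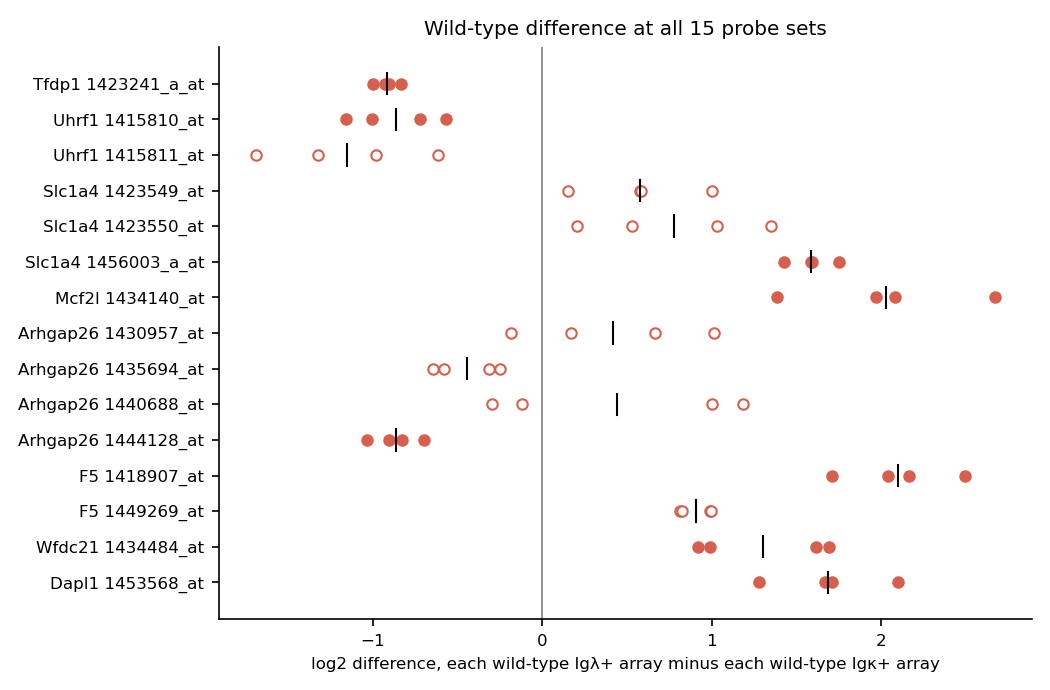
Each of the 15 probe sets of the 8 genes, with the 4 differences of a wild-type Igλ+ array minus a wild-type Igκ+ array on the scale log2(signal + 16). Filled circles mark the probe set that stands for the gene, open circles the others, and black ticks the group difference. The filled circles lie on 1 side of 0 by the choice of the genes, and the 2 probe sets that straddle 0 belong to Arhgap26.

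Wild-type groups that do not overlap were common. Of the 11696 genes tested, 22.7% had both Igλ+ values on 1 side of both Igκ+ values, 13.5% above and 9.24% below, beside 8 of 8 members, which were chosen for it. The fit with limma across all genes called 0% of them between the wild-type groups at an adjusted p of 0.05, with 239 at an unadjusted p under 0.05. Ranked by the moderated t of that fit among the 11678 tested genes outside the immunoglobulins, Slc1a4, F5, Mcf2l, Tfdp1, Dapl1, Uhrf1 and Wfdc21 held ranks 1 to 7 and Arhgap26 rank 10. Krt24 and 1700128F08Rik, at ranks 8 and 9, and Macroh2a2 and Rgs1, at 11 and 12, stood just outside. By the gap between the nearest arrays the order differed, with F5, Slc1a4, Mcf2l and Dapl1 at ranks 1 to 4, Wfdc21 at 16, Tfdp1 at 27, Arhgap26 at 53 and Uhrf1 at 106. The smallest gap of a member, 0.57 for Uhrf1, was matched or passed by 98 other genes. All 8 members passed the filter on low signal, also when it used the wild-type arrays alone, where Dapl1 stood at percentile 40.2 against the limit of 40.

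The TAK1-deficient arrays were not used to choose the genes, but both comparisons with them use wild-type arrays that were. They also share the TAK1-deficient arrays with each other, so their values are given side by side. Directions are those of the deposited scaling unless another is named, and most of them turn under at least 1 other. Against wild-type Igκ+ cells, limma called 75.9% of all genes at an adjusted p of 0.05 (26.1% higher and 49.8% lower), and 5 of the 8 members, 4 higher and 1 lower; array values did not overlap for 89.6% of all genes and for 8 members. Against wild-type Igλ+ cells it called 76.3% of all genes (25.8% higher, 50.5% lower) and 5 members, all higher; values did not overlap for 87.7% of all genes and for 6 members. The members' median difference was 1.43 and 0.67 in the respective comparisons, beside −0.70 and −0.71 over all genes. With most genes called, the number of members called is no result about the members.

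Of the genes that were lower in wild-type Igλ+ cells, Uhrf1 at its brighter probe set fell in TAK1-deficient against wild-type Igκ+ cells, by 0.90 (SE 0.20, adjusted p = 0.00335). That probe set was at −0.04 against Igλ+ cells (SE 0.20, adjusted p = 0.866). Its dimmer probe set was instead at 0.94 against Igκ+ cells and rose by 2.09 against Igλ+ cells (adjusted p = 0.0550 and 0.00121 with every probe set tested). Tfdp1 was at −0.27 against Igκ+ (SE 0.18, adjusted p = 0.206) and rose by 0.64 against Igλ+ cells (SE 0.18, adjusted p = 0.0121). Arhgap26 was at −0.17 against Igκ+ (SE 0.21, adjusted p = 0.486) and rose by 0.70 against Igλ+ cells (SE 0.21, adjusted p = 0.0170). Its second probe set instead fell against Igκ+ cells, by 1.95 (adjusted p = 0.000208 with every probe set tested). Without TAK1-deficient replicate 1, the calls of Arhgap26 and F5 against Igλ+ cells were lost (adjusted p = 0.0764 and 0.177), and without replicate 2 those of Arhgap26 and Tfdp1 (adjusted p = 0.0587 and 0.0889). Leaving out Igλ+ replicate 1 ended the call of Arhgap26 (adjusted p = 0.0548), and leaving out Igλ+ replicate 2 that of F5 (adjusted p = 0.0948).

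Of the genes that were higher in wild-type Igλ+ cells, Dapl1 rose against Igκ+ cells, where it was not above background (adjusted p = 4.74e-06), and by 4.10 against Igλ+ cells (SE 0.34, adjusted p = 1.97e-05). The bound of 102-fold against Igκ+ cells holds for the deposited scale only. The fitted difference of Dapl1 was 5.79 there, 3.41 with the arrays centred on their medians and 3.18 with the added control transcripts set equal. Its fitted difference from Igκ+ cells is no measure of size, since it moved from 7.51 to 4.17 when 1 or 64 was added to the signal in place of 16. F5 rose by 3.31 (SE 0.41, adjusted p = 0.000131) and 1.21 (SE 0.41, adjusted p = 0.0246), and Slc1a4 by 3.02 (SE 0.31, adjusted p = 4.82e-05) and 1.43 (SE 0.31, adjusted p = 0.00281). Mcf2l rose by 2.15 against Igκ+ cells (SE 0.40, adjusted p = 0.00129) and was at 0.12 against Igλ+ cells (SE 0.40, adjusted p = 0.789). Wfdc21 was at 0.72 (SE 0.30, adjusted p = 0.0585) and −0.59 (SE 0.30, adjusted p = 0.109); the first passed when either Igλ+ array was left out (adjusted p = 0.0238 and 0.0300) and the second without Igλ+ replicate 1 (adjusted p = 0.0202).

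The size of these changes followed the signal of a gene in wild-type Igκ+ cells. With the genes cut into deciles of that level, the median change on the TAK1-deficient arrays ran from 4.78 in decile 1, the dimmest, through 0.75 in decile 3 to −1.54 in decile 9. Dapl1 lies in decile 1, where the differences depend on the 16 added to the signal, so it is not set against the median there. F5 and Mcf2l, in decile 2, were at 3.31 and 2.15 beside 2.34. Slc1a4 was at 3.02 beside 0.75, the widest departure from its decile among the 7 members other than Dapl1, and Wfdc21 at 0.72 beside −0.29. Arhgap26, Tfdp1 and Uhrf1, in deciles 7, 8 and 9, were at −0.17, −0.27 and −0.90 beside −1.40, −1.52 and −1.54. Against wild-type Igλ+ cells, with the same deciles, F5 and Mcf2l were below their median, at 1.21 and 0.12 beside 2.06. Wfdc21 was below its own, at −0.59 beside −0.37. Slc1a4 was above, at 1.43 beside 0.60, as were Arhgap26, Tfdp1 and Uhrf1, at 0.70, 0.64 and −0.04 beside −1.41, −1.50 and −1.55. These deciles come from the Igκ+ level. The wild-type difference that chose the members therefore enters each departure against Igλ+ cells and in part fixes its side. With the level dependence removed by a lowess curve, limma called 42.7% of all genes against wild-type Igκ+ cells, 24.7% higher, and 7 of the 8 members, all higher. Among them were Tfdp1 at 1.05 (adjusted p = 0.00226), Uhrf1 at 0.58 (adjusted p = 0.0396), Arhgap26 at 0.80 (adjusted p = 0.0191) and Wfdc21 at 1.36 (adjusted p = 0.00853). Mcf2l, at 1.10, was not called (adjusted p = 0.0605).

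**Figure D3:**
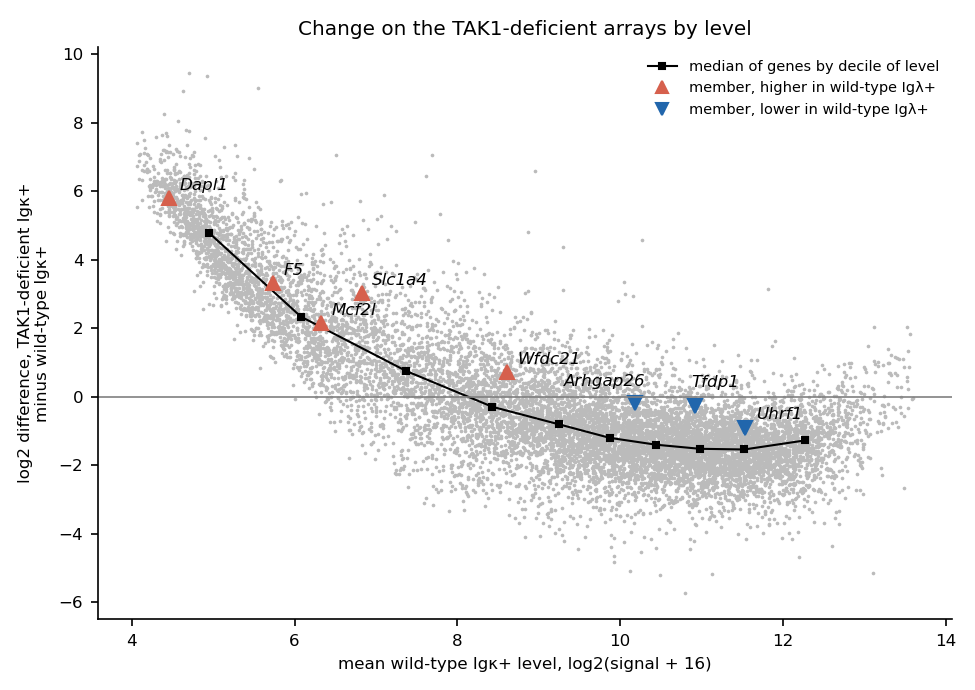
Difference between TAK1-deficient and wild-type Igκ+ cells on the scale log2(signal + 16) against the mean level in wild-type Igκ+ cells, for the 11696 genes tested (grey), with the median of each decile of level (black) and the 8 members (triangles up for genes higher in wild-type Igλ+ cells, down for lower ones). The black line falls from 4.78 to −1.54, and Slc1a4, at 3.02, lies farthest above it among the members other than Dapl1, whose wild-type Igκ+ signal was not above background.

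Scaling moved every value of this kind. The median of all genes against wild-type Igκ+ cells was −0.70 as deposited, −0.91 after quantile normalization, −3.08 with the arrays centred on their medians, −3.97 with the added control transcripts set equal and 0.03 after the level adjustment. Dapl1 and F5 had positive differences from wild-type Igκ+ cells under all 5 scalings, and Slc1a4 under 4, with −0.23 under the control transcripts. The call of F5 ended with median centring (0.93, adjusted p = 0.0538) and with the control transcripts (0.28, adjusted p = 0.512), as did that of Slc1a4 (0.64, adjusted p = 0.0889, and adjusted p = 0.495). Tfdp1 and Arhgap26 were positive under 2, Mcf2l under 2, Wfdc21 under 3 and Uhrf1 under 1. Relative to the median of all genes, 7 members were above it under all 5 scalings, from 1.75 to 4.25 for F5 and 2.20 to 3.73 for Slc1a4. That median takes no account of level, and dim genes as a whole lay above it. Decile 2 was at 2.34 as deposited, where Mcf2l was at 2.15. Uhrf1 was above the median of all genes under 2 scalings and below it under 3, between −0.34 and 0.78. Against wild-type Igλ+ cells, Dapl1 was the member with a positive difference under all 5 scalings. Between the wild-type groups the median of all genes moved less, from 0.04 as deposited to −0.11 with median centring and −0.14 with the control transcripts.

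**Figure D4:**
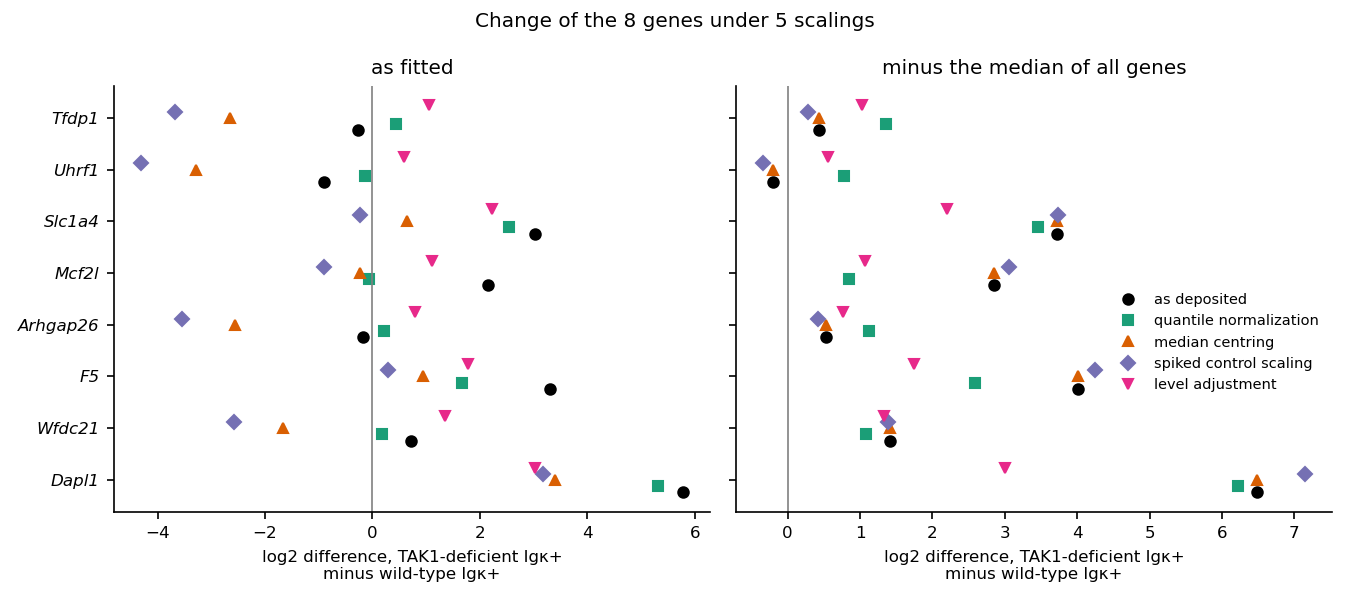
Difference between TAK1-deficient and wild-type Igκ+ cells for the 8 genes under 5 scalings of the arrays, on the log2 scale, as fitted (left) and minus the median of all genes tested under that scaling (right). Tfdp1 runs from −3.68 to 1.05 on the left and from 0.29 to 1.36 on the right, while Dapl1 stays above 0 in both.

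In the lists of genes that act with Tfdp1 and Uhrf1, more had a lower than a higher value in wild-type Igλ+ cells, with list medians between −0.36 and −0.14. None was called by limma, as for all genes, and 42.2% of all genes had a lower value in Igλ+ cells, with a median difference of 0.04. Of 26 other E2F, DP and RB family genes and their cyclins, kinases and inhibitors, 20 had a lower value, with a median of −0.14. In 7 of them (E2f3, E2f7, Rbl1, Ccnd2, Cdk2, Cdkn2c and Lin54) both Igλ+ arrays were below both Igκ+ arrays, and in 0 above, beside 9.24% and 13.5% of all genes. The 3 of highest wild-type signal were Cdkn1b, the CDK inhibitor p27, at −0.02, Ccnd2, cyclin D2, at −0.61, and E2f2 at −0.30. Of 26 genes of S phase and division, 22 had a lower value, with a median of −0.36. Only Gins1, a replicative helicase subunit, at −0.58, and Pclaf, a PCNA partner, at −1.77, were without overlap, 2 of 26 beside 22.7% of all genes. The signals of that list also differed between replicates in both wild-type groups. They summed to 49927 and 32596 on Igκ+ replicates 1 and 2, and to 43032 and 23394 on Igλ+ replicates 1 and 2. Those of highest signal in that list, the sliding clamp Pcna, the helicase subunit Mcm4 and the licensing factor Cdt1, were at −0.25, −0.07 and 0.11. Among 14 other genes of DNA methylation and its maintenance, 10 had a lower value and the median was −0.23. Dnmt1, which UHRF1 recruits, was at −0.23 with overlapping groups, and Usp7, the deubiquitinase that binds both, at 0.08. Usp7 and Hdac1, at 0.15, were higher without overlap, and Hells, at −0.56, was lower. Against wild-type Igκ+ cells, with members counted, TAK1-deficient cells had 2 higher, 13 lower and 12 not called in the E2F list, 2, 14 and 10 in the S phase list, and 1, 9 and 5 in the methylation list. Of all genes, 26.1% were called higher and 49.8% lower in that comparison, so the number called lower is no result about these lists.

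The list around Slc1a4, of amino acid carriers, serine synthesis enzymes and genes induced through ATF4, leaned the other way. Of 20 other tested genes 16 had a higher value in wild-type Igλ+ cells, with a median of 0.24. In 7, beside 13.5% of all genes, both Igλ+ arrays were above both Igκ+ arrays: the carriers Slc1a5, the ASCT2 paralog of the member, at 0.30, Slc7a6 at 0.22, Slc38a2 at 0.25 and Slc6a9 at 1.46, and the stress response genes Ddit3 at 0.52, Trib3 at 0.88 and Sesn2 at 0.34. Trib3 read 44.2 and 40.6 in Igκ+ and 107 and 78.6 in Igλ+ cells. Slc38a1 and Psph were without overlap the other way, at −0.14 and −0.30. The 3 of highest signal, Slc38a1, Atf4 and the arginine carrier Slc7a1, were at −0.14, 0.06 and −0.05, and the arrays of Atf4 overlapped between the groups. Against wild-type Igκ+ cells, TAK1-deficient cells had 6 genes of this list higher, Slc1a4 included, 12 lower and 3 not called. The shares of all genes were 26.1% higher and 49.8% lower.

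The lists around F5 and Wfdc21 held few genes that separated the wild-type groups. Among 10 other tested coagulation genes, Tfpi alone, the inhibitor of the tissue factor pathway, had no overlap, and by a gap of 0.00046. The factor V and VIII transport receptor pair Lman1 and Mcfd2 was at 0.02 and 0.07, and Thbd, thrombomodulin, at 0.35. F13a1 and F10 were high on Igλ+ replicate 1 alone, at 2291 and 247 there against 44.2 and 20.7 on replicate 2. The 4 other WAP domain genes tested all overlapped, among them Wfdc17 at 0.16, Slpi at 0.29 and Wfdc18 at −0.09. In TAK1-deficient against wild-type Igκ+ cells, members counted, the coagulation list had 5 higher, 2 lower and 4 not called, and the WAP list 1, 2 and 2. The shares of all genes were 26.1% higher and 49.8% lower, and dim genes as a whole rose on these arrays.

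**Figure D5:**
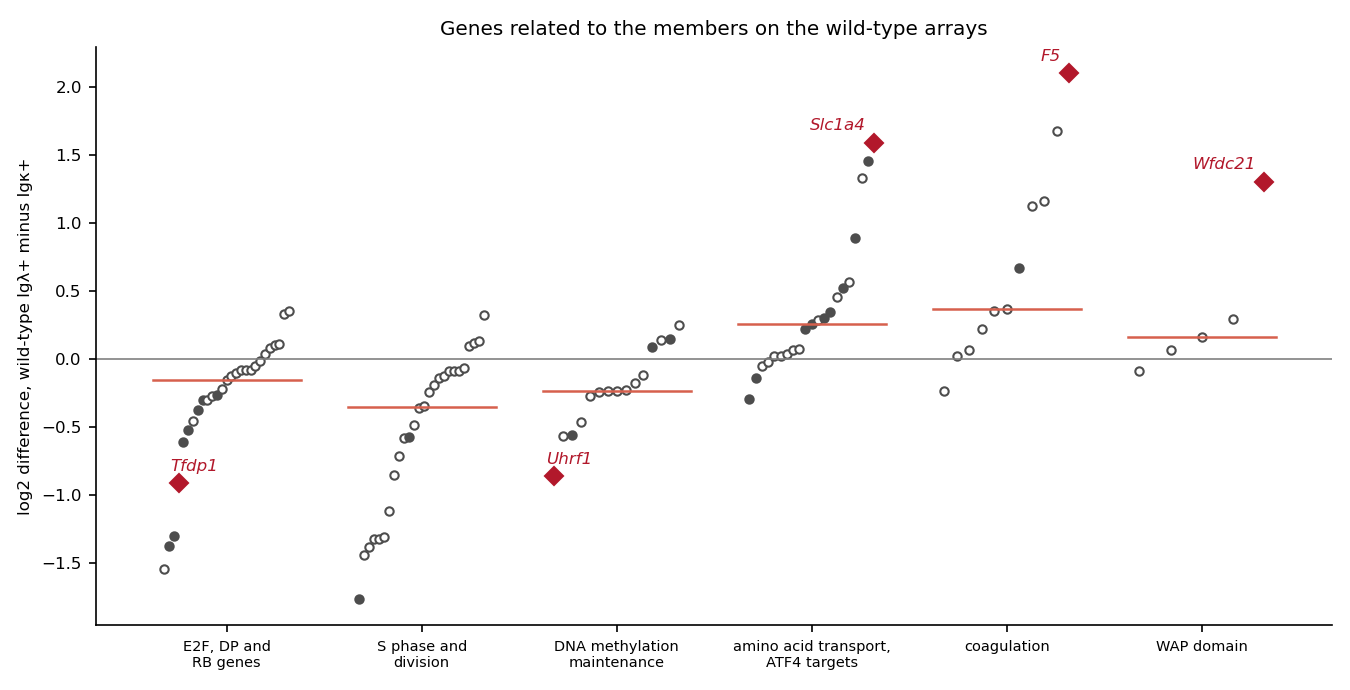
Difference between wild-type Igλ+ and Igκ+ cells on the scale log2(signal + 16) for the tested genes of 6 lists, ordered within each list, with members as red diamonds and the other genes as circles. Filled symbols are genes whose groups do not overlap, and red bars list medians, members included. Most circles of the first 3 lists lie below 0 and most of the fourth above it, and every member shown except Tfdp1 lies at the end of its list.

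Some genes of earlier B cell stages were also apart in the wild-type groups, though none was called by limma. Of 14 tested, Rag1 and Rag2, the V(D)J recombinase, Il7r, the interleukin 7 receptor, and Igll1, a surrogate light chain, were higher in both Igλ+ arrays, and Lef1 was lower, 5 of 14 without overlap beside 22.7% of all genes. Rag1 read 178 and 69.4 in Igκ+ and 315 and 478 in Igλ+ cells, a difference of 1.65, and Rag2 23.8 and 6.56 against 41.6 and 39.2. The Rag2 value of 6.56 was below the background level of its array, 10.3. Those of highest wild-type signal in the list, Cd24a, Myb and Bcl11a, were at 0.01, 0.09 and −0.20, all with overlapping groups. The median of the list of earlier stages was 0.09. Of 16 genes of mature follicular B cells 0 separated the groups, with a median of −0.06, and H2-Eb1, with the highest signal, was at −0.05.

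Markers of several other cell types were uneven between the 2 Igλ+ arrays. All 12 granulocyte markers on the array, led by S100a9 and S100a8, were above background on Igλ+ replicate 1, where they summed to 39629, and 6 of 12 on replicate 2, where they summed to 358, against 5454 and 346 on the Igκ+ arrays. Elane and Mpo, which define granulocyte precursors, read 2559.8 and 7357 on Igλ+ replicate 1 and 16.1 and 55.0 on replicate 2. The 11 monocyte markers summed to 10974 and 622 against 2317 and 1050, and 5 mast cell and basophil markers to 8394 and 94.0 against 1506 and 162. For 9 megakaryocyte and platelet markers the sums were 5398 and 148 against 440 and 126. For 9 erythroid markers they were 3595 and 1116 against 1259 and 1700. On Igλ+ replicate 2, where these lists are within or below the Igκ+ range, the members, whose side is fixed by how they were chosen, had these values: Slc1a4 read 306, Mcf2l 240.1, F5 179, Wfdc21 1211, Dapl1 66.5, Tfdp1 1046, Uhrf1 1389 and Arhgap26 667. The 8 plasma cell markers summed to 24754 and 14673 in Igλ+ against 34555 and 27347 in Igκ+ cells. One of them, the immunoglobulin gene Igha, read 8055 and 348 in Igλ+ against 10263 and 7531 in Igκ+ cells. Of the 8, 7 had a lower value in Igλ+ cells, beside 42.2% of all genes, and 3 were lower without overlap, beside 9.24%. The 7 plasmacytoid dendritic cell markers were more even, with sums of 9247 and 7292 in Igλ+ against 6805 and 7080 in Igκ+ cells. All 6 tested had a higher value in Igλ+ cells, beside 57.8% of all genes. Bst2 and Cox6a2, 2 of the 6, were without overlap, beside 13.5% of all genes. In the TAK1-deficient cells the 11 T cell markers summed to 5706 and 6077 against 248 to 395 on the wild-type arrays. Of these, 8 and 9 were above background there and 4 to 11 on a wild-type array. The 10 stromal and endothelial markers summed to 6764 and 6640.4 against 1009.7 to 1313 for wild type. All 10 were above the background of both TAK1-deficient arrays and 4 to 7 that of a wild-type array, and of the 5 tested against wild-type Igκ+ cells 4 were called higher and 1 lower. Of all genes, 26.1% were called higher and 49.8% lower in that comparison. The part of these markers in the members' differences was not tested, and in sorted cells more cells of a type and more RNA per cell cannot be told apart. On the TAK1-deficient arrays neither can be told apart from the rise of dim genes as a whole. Against wild-type Igκ+ cells the tested T cell and stromal markers had medians of 3.21 and 4.30, beside 4.78 and 2.34 for all genes of deciles 1 and 2 of level.

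Genes with profiles most like those of the members were found by the root mean square difference of log2 profiles, each centred on its own mean over the 6 arrays. Tfdp1 and Arhgap26 were each other's close matches, at 0.12, among all genes tested, with St6galnac3 nearer still to Arhgap26 at 0.11 and 4930579G24Rik at 0.14 from Tfdp1. Uhrf1 was most like Lmnb1, which encodes lamin B1, at 0.17, and Tfap4 at 0.20. Slc1a4 was most like Cox6a2, a marker in the plasmacytoid dendritic list above, at 0.17 and Add2 at 0.23. F5 was most like Slc1a4 at 0.37 and Stx3 at 0.41. Mcf2l had no match closer than Stx3 at 0.41 and Arap3 at 0.42. Wfdc21 was nearest to Hlx and Plxdc1, at 0.28 and 0.30, and Dapl1 to Syt4 and Krt24, at 0.27 and 0.28. The level on the TAK1-deficient arrays enters every one of these distances. So do the wild-type values that chose the members, and likeness between 2 members is therefore partly fixed by that choice. Each gene was taken at the probe set that stands for it. Against wild-type Igκ+ cells, that of Arhgap26 was at −0.17 on the TAK1-deficient arrays and its second probe set at −1.95.

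By position, F5 lies on chromosome 1, Dapl1 on 2, Slc1a4 and Wfdc21 on 11, Uhrf1 on 17 and Arhgap26 on 18 in RefSeq's annotation. Mcf2l and Tfdp1, which went opposite ways, are near each other on chromosome 8 with 18 annotated genes between them. Of those, 8 were tested and 0 had wild-type groups without overlap, beside 22.7% of all genes. With 8 genes tested, that count is no result about the region.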

How the data were processed

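Biotin-labelled RNA of 6 samples was measured on arrays, and the authors deposited 1 probe set signal intensity per array, made with MAS5, per the labels; its version is not stated there. The signals are on a linear scale with a common trimmed mean, per the deposited values, and no presence calls were used. The number of arrays, 2 a group, limits the precision. Probe sets were named through GEO's platform annotation, where 34945 of 45101 have 1 gene symbol; 34741 of these matched RefSeq by gene ID, with 0 changed symbols.

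Signals were taken as log2(signal + 16), which understates changes at low signal. Each gene was represented by its brightest probe set on average, genes above the 40th percentile of mean signal were kept (11696), and group means were fitted over all 6 arrays with limma 3.58.1 (lmFit, eBayes with trend, two-sided, 3 residual degrees of freedom) in R 4.3.3, adjusted by Benjamini-Hochberg over all genes at 0.05. The fit was tested on simulated data. Wild-type groups were also compared by the gap between their nearest arrays. Named genes are all 8 members, the 3 list genes brightest in wild-type cells, the 2 genes of most like profile, and genes without overlap, these last named after their values were seen. The members and lists were chosen with earlier results of these data known. Alternatives were other pseudocounts (1 and 64), filters, scalings, probe set rules, fits and each array left out; a filter on the wild-type arrays was chosen after seeing the data. The second sample of each group shares only a title suffix, so no pairing was used. Differences between replicates 1 and 2 correlated over genes at 0.22 between the 2 wild-type groups. With the TAK1-deficient group they correlated at 0.01 for wild-type Igκ+ and 0.03 for Igλ+ cells. A fit with a replicate block was among the alternatives. The list around Mcf2l and Arhgap26 is not reported here.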

Additional observations from a re-analysis of the deposited data

How the results depend on the processing

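The directions of the 8 wild-type differences are fixed by the choice of genes, and many alternatives leave those values as they are, so their ranges are given as a description. They were −1.11 to −0.77 for Tfdp1, −1.08 to −0.65 for Uhrf1, 1.18 to 1.73 for Slc1a4, 1.49 to 2.38 for Mcf2l, −1.06 to −0.70 for Arhgap26, 1.45 to 2.48 for F5, 0.95 to 1.65 for Wfdc21 and 0.77 to 3.08 for Dapl1. The fit over all genes called 0 between the wild-type groups, except 7 without Igλ+ replicate 1 and 68 without Igλ+ replicate 2. Members called against wild-type Igκ+ cells went from 5 to 3 with the filter at the 60th percentile, which drops F5 and Dapl1 and called 75.0% of all genes, and to 3 with quantile normalization (78.0%). They stayed at 5 with median centring (89.4%) and with the control transcripts (89.1%), but as 1 higher and 4 lower: Slc1a4, F5 and Mcf2l were no longer called, and Tfdp1, Arhgap26 and Wfdc21 were called lower. Against Igλ+ cells they went from 5 to 3 with that filter (76.1%) and to 8 (1 higher, 7 lower) with median centring (88.3%) and with the control transcripts (88.6%). Leaving out each array gave 5 to 6 and 3 to 5 members called, and 8 in the wild-type description. The replicate block gave 5, 5 and 8, as without it.

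Differences from wild-type Igκ+ cells turned sign as follows: with quantile normalization Tfdp1 0.45, Arhgap26 0.21 and Mcf2l −0.063; with the level adjustment Tfdp1 1.05, Uhrf1 0.58 and Arhgap26 0.80; with median centring Mcf2l −0.23 and Wfdc21 −1.66; with the control transcripts Slc1a4 −0.23, Mcf2l −0.91 and Wfdc21 −2.58. Differences from Igλ+ cells turned with median centring and with the control transcripts for Tfdp1 (−1.59, −2.57), Slc1a4 (−0.80, −1.72), Mcf2l (−2.11, −2.89), Arhgap26 (−1.54, −2.48) and F5 (−1.02, −1.85). They turned with quantile normalization for Uhrf1 (0.63) and Mcf2l (−1.55), and with the level adjustment for Uhrf1 (1.44), Mcf2l (−0.93), F5 (−0.33) and Wfdc21 (0.053). With each array left out, Uhrf1 ran from −0.26 to 0.18 and Mcf2l from −0.23 to 0.47; Uhrf1 turned without TAK1-deficient replicate 1 (0.070) or Igλ+ replicate 1 (0.18), and Mcf2l without TAK1-deficient replicate 2 (−0.062) or Igλ+ replicate 2 (−0.23). Median centring and the control transcripts lower every gene of the TAK1-deficient arrays by construction; other causes were not tested. Genes called in all, 8878 and 8922, became 14703 and 14528 with no filter, 15802 and 15889 with every probe set and 4995 and 5007 with the level adjustment. Of the called genes 34.4% were higher than in wild-type Igκ+ cells, 12.9% with median centring, 6.78% with the control transcripts and 57.8% with the level adjustment.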
